A study of Mus musculus with 267 samples.

Results

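The regions described here are cis-regulatory regions whose H3K27 acetylation rose after IL-4 in exactly 1 of 5 inbred mouse strains. They were taken from ChIP-seq (immunoprecipitation followed by sequencing) tag counts in regions of 1000 bp centred on ATAC-seq peaks, which mark open chromatin. A region was a member when the H3K27ac ratio (24 h mean + 1)/(basal mean + 1) was at least 2.5 and the larger mean was at least 16 normalized tags in 1 strain and not in the other 4. Of 29462 regions matched between the tables of all 5 strains, 656 were members. C57 was the inducing strain for 156, BALB for 40, NOD for 117, PWK for 145 and SPRET for 198. The rule was passed, alone or together with other strains, by 2.96% of the matched regions in C57, 2.19% in BALB, 2.65% in NOD, 2.13% in PWK and 2.02% in SPRET. Because these H3K27ac values chose the members, they are given as a description and carry no test.

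The cells were bone marrow-derived macrophages (BMDMs), grown from marrow with M-CSF and compared without IL-4 (basal) and after 24 h of IL-4. IL-4 was given at 20 ng/mL. The marrow came from the classical laboratory strains C57BL/6J (C57), BALB/cJ (BALB) and NOD/ShiLtJ (NOD), from the wild-derived Mus musculus strain PWK/PhJ (PWK), and from SPRET/EiJ (SPRET), which derives from Mus spretus. C57 cells were also taken after 1 h and 6 h of IL-4. A separate set of H3K27ac libraries came from Egr2flfl mice, which carry a floxed Egr2 gene, and from LyzMCreEgr2flfl mice, which carry the same floxed gene and a Cre recombinase expressed in myeloid cells. All groups were thus cultured macrophages and not tissue, and 2 libraries stood behind each H3K27ac mean. The submitters called the libraries biological replicates, without saying which animals or cultures each came from, so the spread between them may be partly technical.

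IL-4 is a cytokine of type 2 immunity. Binding to its receptor activates the transcription factor STAT6, and macrophages then take up the alternatively activated state known from parasite infection, tissue repair and adipose tissue. Enhancers are stretches of DNA outside promoters that bind transcription factors and raise the transcription of genes nearby. In macrophages many of them are opened by the lineage factors PU.1 and C/EBPb, and EGR2 and PPARg join STAT6 in the IL-4 response. H3K27ac marks active enhancers and promoters, H3K4me2 marks both whether or not they are active, H3K4me3 marks promoters, and RNA polymerase II (Pol II) is found at both when they are transcribed.

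A set of 5 regions, 1 for each inducing strain, introduces the members. Each had the largest H3K27ac ratio of its group among intronic and intergenic members in which both 24 h libraries exceeded both basal libraries. Their central 200 bp are printed from the mm10 reference genome, which is the C57BL/6J sequence, on the plus strand. The letters of the other strains may differ and were not read here. Capitals mark matches to the motifs searched further on.
C57-only region at chr14:25362157-25362356, intergenic, nearest gene start Zmiz1; the capitals mark an EGR match on the minus strand: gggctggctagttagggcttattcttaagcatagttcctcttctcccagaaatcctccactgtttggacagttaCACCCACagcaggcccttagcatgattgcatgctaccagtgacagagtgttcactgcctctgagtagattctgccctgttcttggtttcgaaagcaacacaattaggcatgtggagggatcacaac
BALB-only region at chr14:60805742-60805941, in an intron, nearest gene start Mipep; no motif searched was matched: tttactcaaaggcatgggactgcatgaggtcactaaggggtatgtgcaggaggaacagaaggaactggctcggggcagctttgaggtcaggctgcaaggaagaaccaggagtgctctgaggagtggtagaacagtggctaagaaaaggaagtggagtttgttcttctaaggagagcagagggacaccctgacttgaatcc
NOD-only region at chr11:104630308-104630507, in an intron, nearest gene start Itgb3; no motif searched was matched: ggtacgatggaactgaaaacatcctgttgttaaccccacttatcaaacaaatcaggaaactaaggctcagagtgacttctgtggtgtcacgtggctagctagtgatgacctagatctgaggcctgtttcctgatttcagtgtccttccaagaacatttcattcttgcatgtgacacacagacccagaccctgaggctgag
PWK-only region at chr5:17857396-17857595, in an intron, nearest gene start Cd36; the capitals mark a STAT6 match on the plus strand and then a C/EBP match on the minus strand: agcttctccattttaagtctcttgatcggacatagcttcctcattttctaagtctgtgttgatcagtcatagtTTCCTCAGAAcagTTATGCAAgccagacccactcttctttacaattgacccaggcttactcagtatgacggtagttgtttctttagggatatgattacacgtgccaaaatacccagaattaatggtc
SPRET-only region at chr13:62880335-62880534, in an intron, nearest gene start Fbp1; the capitals mark a PU.1 match on the plus strand: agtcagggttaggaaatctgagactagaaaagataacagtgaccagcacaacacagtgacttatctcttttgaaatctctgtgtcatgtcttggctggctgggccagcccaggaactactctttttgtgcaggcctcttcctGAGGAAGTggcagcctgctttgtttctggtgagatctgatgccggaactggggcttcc

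The SPRET-only region nearest Fbp1, which encodes the gluconeogenic enzyme fructose bisphosphatase, had the largest ratio of all members. Its H3K27ac was 9.40 and 9.88 normalized tags in the SPRET basal libraries and 146 and 101 at 24 h, an 11.7-fold ratio. In C57 it was 15.6 and 72.7 at basal and 25.5 and 70.2 at 24 h, a ratio of 1.08. BALB went from 47.0 and 70.3 to 66.3 and 57.2, a ratio of 1.05. The libraries of both conditions overlapped in C57 and BALB, and every basal library of these strains was above both SPRET basal libraries. NOD went from 49.0 and 144 to 32.6 and 94.0, and PWK from 22.3 and 31.3 to 20.2 and 35.3. SPRET therefore had the lowest basal level and the highest 24 h mean of the 5 strains at this region.

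The PWK-only region nearest Cd36, a scavenger receptor that takes up oxidized lipoprotein and fatty acids, followed a related pattern. Its H3K27ac rose in PWK from 15.4 and 16.4 to 230 and 103, a 9.90-fold ratio. In C57 the libraries went from 54.3 and 142 to 156 and 208, and in NOD from 150 and 163 to 260 and 204. BALB went from 42.6 and 102 to 166 and 98.1. Here the other strains started above PWK and ended at a similar level, with ratios of 1.85 in C57, 1.82 in BALB, 1.48 in NOD and 2.30 in SPRET. SPRET libraries were 69.2 and 64.5 at basal and 192 and 118 at 24 h. BALB libraries overlapped between conditions, and those of the other 4 strains did not.

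The other 3 leading regions had low levels in most strains. The C57-only region nearest Zmiz1, which encodes a transcriptional coregulator, had 2.71 and 3.57 tags in C57 at basal and 12.7 and 38.1 at 24 h, a 6.38-fold ratio. PWK reached a ratio of 4.76 there, from 0 and 2.35 to 10.1 and 8.59, and BALB one of 2.70, from 6.61 and 2.98 to 13.6 and 15.7. Neither passed because their larger mean stayed below 16 tags. At the NOD-only region nearest Itgb3, an integrin subunit gene, NOD went from 1.66 and 1.59 to 19.5 and 15.2, a 7.00-fold ratio. The ratio was 3.94 in BALB, 2.2 in C57, 2.30 in PWK and 1.63 in SPRET. BALB went there from 1.47 and 2.38 to 10.5 and 10.5. The BALB-only region nearest Mipep, the gene of a mitochondrial peptidase, had 4.41 and 0 tags in BALB at basal and 21.8 and 14.3 at 24 h. In SPRET the same region had 268 and 382 tags at basal and 470 and 353 at 24 h, above every library of the other strains.

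**Figure D1:**
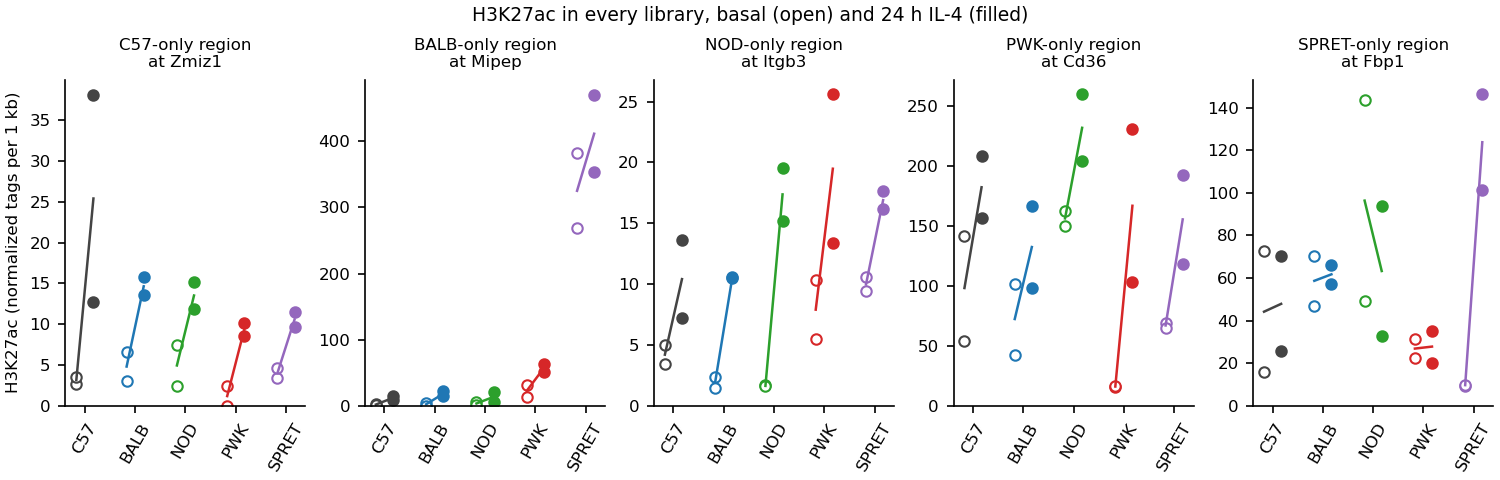
H3K27ac at the leading region of each group, in normalized tags on a linear axis that differs between panels, for each library of the 5 strains at basal (open) and at 24 h (filled), with a line joining the means. The Fbp1 and Cd36 regions start lowest in SPRET and PWK, at 9.40 and 9.88 tags and at 15.4 and 16.4 tags, and the Mipep region is highest in SPRET, at 268 and 382 tags at basal.

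The second leading region of each group had values of the same kind. The region nearest S1pr3, a sphingosine phosphate receptor gene, rose in SPRET from 0.85 and 3.29 to 45.0 and 22.6 tags, and the region nearest Adora2a, an adenosine receptor gene, rose in PWK from 1.72 and 0.78 to 12.8 and 24.8. The C57-only region nearest Lrrc8d, which encodes an anion channel subunit, went from 6.11 and 2.14 to 49.2 and 13.8. Its 24 h libraries differed widely, as did those of the BALB-only region nearest Bcas1, at 27.1 and 6.19 from a basal 1.47 and 2.98. The NOD-only region nearest Taf11, the gene of a TFIID subunit, went from 4.16 and 3.18 to 15.9 and 28.7.

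The 88 libraries of the strain tables held 4691644 to 21973750 tags, and each value was scaled to 10000000 tags per library, so 16 normalized tags stood for 9.32 to 33.6 reads in the H3K27ac libraries. None of the 47 replicate pairs was identical. Of 7 macrophage marker genes, 6 or 7 had a region at their start in each table, and of 6 T cell marker genes none had. The macrophage markers' H3K4me3 summed to 1315 to 1960 normalized tags over the strains. It summed to 1.04 to 3.27 for 5 B cell, 24.6 to 38.4 for 6 neutrophil and 233 to 427 for 5 dendritic cell markers. Fibroblast markers reached at most 37.7. Most of the dendritic cell sum lay at Zbtb46, at 231 to 427. Among macrophage markers Csf1r had 2.75 to 20.2 where it had a region, and Fcgr1 had 4.02 in SPRET. Basal H3K27ac of neutrophil markers summed to 53.8 to 347, against 1943 to 3484 for macrophage markers. Over all matched regions the median H3K27ac ratio at 24 h was 0.679 in C57, 0.819 in BALB, 0.798 in NOD, 0.845 in PWK and 0.909 in SPRET. A rise of 2.5-fold was thus set against a table that mostly went down, and furthest in C57.

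In all, 1527 regions passed in at least 1 strain, 283 in 2 strains, 244 in 3, 154 in 4 and 190 in all 5. The members' ratio in the inducing strain had a median of 2.94 and ran from 2.5 to 11.7, with 349 members under 3-fold and 33 at 5-fold or more. The group medians lay close together, at 2.91 in C57, 2.93 in BALB, 2.83 in NOD, 3.01 in PWK and 3 in SPRET. Both 24 h libraries exceeded both basal libraries in 149 of 156 C57-only regions, 38 of 40 BALB-only, 110 of 117 NOD-only, 135 of 145 PWK-only and 187 of 198 SPRET-only regions. The same was seen in 11.2%, 9.78%, 11.7%, 10.0% and 13.7% of all matched regions in these strains. These shares follow from the rule.

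Many members lay near the threshold. Between 2.5-fold and 2.6-fold lay 28 C57-only, 6 BALB-only, 24 NOD-only, 23 PWK-only and 24 SPRET-only regions, and 35, 22, 18, 21 and 41 regions that were induced in no strain had a ratio between 2.4 and 2.5 in C57, BALB, NOD, PWK and SPRET. The ratio in at least 1 other strain was 2 or more in 415 of 656 members (63.3%). By inducing strain, 116 C57-only regions (74.4%), 33 BALB-only (82.5%), 83 NOD-only (70.9%), 91 PWK-only (62.8%) and 92 SPRET-only regions (46.5%) did so. In 106 members another strain reached 2.5-fold with fewer than 16 tags, as PWK did near Zmiz1. A ratio under 1.4 in every other strain was found in 70 members, of which 44 were SPRET-only, 14 PWK-only, 6 NOD-only, 5 C57-only and 1 BALB-only.

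The libraries of the other strains gave the same picture. In 94 members every other strain also had both 24 h libraries above both basal libraries, and in 134 none had, of which 73 were SPRET-only. The shares of all matched regions for these combinations of strains were not taken, so these counts are only described. In 54 members at least 1 other strain had both 24 h libraries below both basal libraries. In a single other strain this held for 0% to 10.6% of a group, against 28.2% to 47.9% of all matched regions. Those 54 comprised 29 SPRET-only, 10 NOD-only, 8 C57-only and 7 PWK-only regions and no BALB-only region. The median ratio of the SPRET-only regions was 1.49 in C57, 1.44 in BALB, 1.41 in NOD and 1.43 in PWK, whereas that of the C57-only regions was 1.85 in BALB, 1.97 in NOD, 1.4 in PWK and 1.5 in SPRET.

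With 2 libraries for each mean, single libraries moved the groups. Without NOD basal replicate 1 the rule found 1078 members in all, of which 611 were NOD-only. The NOD-only count was 366 without NOD basal replicate 2, 207 without NOD 24 h replicate 1 and 244 without NOD 24 h replicate 2. BALB-only regions numbered 396 without BALB basal replicate 1, 127 without BALB basal replicate 2, 22 without BALB 24 h replicate 1 and 314 without BALB 24 h replicate 2. C57-only regions numbered 418 without C57 basal replicate 1, 346 without C57 basal replicate 2 and 340 without C57 24 h replicate 1. PWK-only regions numbered 273 without PWK basal replicate 1, 476 without PWK basal replicate 2 and 247 without PWK 24 h replicate 2, and SPRET-only regions 451 without SPRET basal replicate 2 and 407 without SPRET 24 h replicate 2. Across these omissions, 528 to 609 of the 656 members remained in the set. Fewer remained in the group whose own library was left out, namely 68 to 126 of 156 C57-only, 9 to 39 of 40 BALB-only, 68 to 85 of 117 NOD-only, 85 to 119 of 145 PWK-only and 118 to 176 of 198 SPRET-only regions. The lowest of these came without C57 24 h replicate 2, BALB 24 h replicate 1, NOD 24 h replicate 2, PWK 24 h replicate 1 and SPRET 24 h replicate 1. With libraries scaled by the median ratio over matched regions in place of their total, C57-only regions numbered 252 and BALB-only regions 84, and 387 of the 852 regions found were members.

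Basal H3K27ac was then set beside the response. Basal level in another strain was called high when it was over 2-fold that of the inducing strain, low when under that of the inducing strain by more than 2-fold, and equal in between, with 1 tag added to each mean. The strains come from separately made tables, so these are descriptions. Over the 2624 pairs of a member and another strain, 954 (36.4%) were high, 1393 (53.1%) equal and 277 (10.6%) low. High pairs made up 38.9% in the C57-only, 36.2% in the BALB-only, 35.5% in the NOD-only, 29.1% in the PWK-only and 40.2% in the SPRET-only group. Among all matched regions, compared with the same strains, high pairs made up 9.46%, 9.13%, 7.44%, 10.3% and 14.9%. A low basal level in the inducing strain raises its ratio, so the rule itself favours high pairs. Low pairs made up 4.17% in the C57-only, 8.75% in the BALB-only, 3.63% in the NOD-only, 19.7% in the PWK-only and 13.4% in the SPRET-only group, beside 7.61%, 7.13%, 10.2%, 13.3% and 13% of all matched regions.

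The other strains did not share these classes evenly. For C57-only regions, basal level was high in 59.0% in SPRET and 55.8% in PWK, and in 21.8% in NOD and 19.2% in BALB. NOD-only regions split alike, with 53.8% high in PWK and 52.1% in SPRET against 18.8% in C57 and 17.1% in BALB. BALB-only regions were high in 52.5% in SPRET, 50% in PWK, 25% in NOD and 17.5% in C57. The wild-derived strains thus held most of the high basal levels for all 3 laboratory strains' regions. The share of all matched regions was not taken for each pair of strains. Whether this split is particular to the members therefore cannot be told. For SPRET-only regions the shares were closer to each other, at 35.9% in C57, 36.9% in BALB, 40.4% in NOD and 47.5% in PWK, and for PWK-only regions at 26.2%, 25.5% and 29.0% in C57, BALB and NOD and 35.9% in SPRET.

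**Figure D2:**
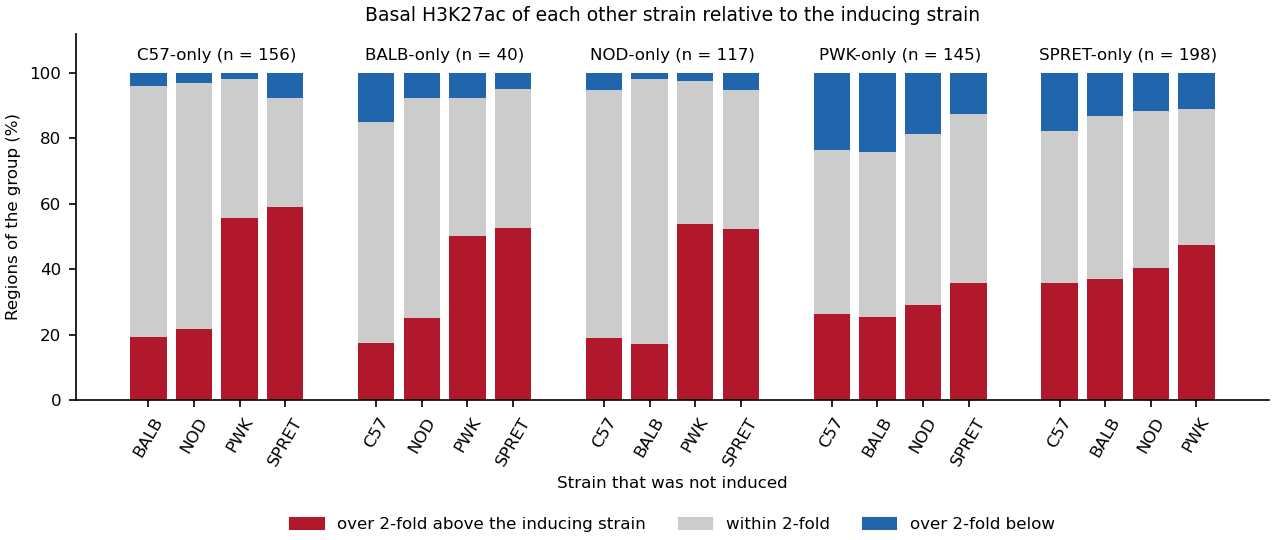
Share in percent of members whose basal H3K27ac in another strain was high, equal or low relative to the inducing strain, for each pair of inducing strain and other strain. High basal levels reach 59.0% for C57-only regions in SPRET and stand at 17.1% for NOD-only regions in BALB.

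Seen by region, basal level was high in all 4 other strains in 85 members, equal in all 4 in 129 and low in all 4 in 15. Of the 85, 45 were SPRET-only, 19 PWK-only, 12 C57-only, 7 NOD-only and 2 BALB-only, and all 15 low regions were PWK-only (8) or SPRET-only (7). The inducing strain had the lowest basal mean of the 5 strains in 310 members (47.3%), and in 277 (42.2%) the basal mean of another strain was at least the 24 h mean of the inducing strain. In 229 members (34.9%) the inducing strain had the highest 24 h mean, among them 95 SPRET-only and 76 PWK-only regions. In 84 it had the lowest. The rule favours a low basal level in the inducing strain, and these counts were not taken over all matched regions, so they are only described. The median basal and 24 h levels in the inducing strain were 9.94 and 32.4 tags for C57-only, 10.1 and 33.0 for BALB-only, 13.9 and 42.3 for NOD-only, 12.6 and 40.9 for PWK-only and 15.9 and 53.7 for SPRET-only regions. At basal, the SPRET-only regions stood at medians of 25.5 in C57, 31.0 in BALB, 30.7 in NOD and 35.0 in PWK.

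The members with the highest basal level elsewhere show the high class. The SPRET-only region nearest Tril, which encodes an accessory protein of Toll-like receptors, had 40.2 and 27 tags in SPRET at basal and 101 and 74.3 at 24 h. The basal means of the other strains there lay between 277 and 461. At the C57-only exonic region of Dlgap5, a mitotic spindle gene, C57 went from 7.46 and 11.4 to 11.9 and 40.7, and its libraries did not overlap although the lower 24 h value was close to the higher basal one. The other basal means there lay between 116 and 226. The NOD-only promoter region of Skil, a repressor of SMAD signalling, went in NOD from 105 and 67.5 to 361 and 160, while SPRET fell from 432 and 429 to 329 and 64.6. In each of these 3 the other strains had more acetylation before IL-4 than the inducing strain.

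The members with the lowest basal level elsewhere show the opposite. The SPRET-only promoter region of Tuba8, an alpha-tubulin gene, had 18.8 and 13.8 tags in SPRET at basal and 63.5 and 60.3 at 24 h. No basal library of another strain exceeded 3.43 tags there. The PWK-only region nearest Efcc1 went in PWK from 1.72 and 7.83 to 16.2 and 21.9, with basal means of 0 to 1.61 in the other strains. The C57-only region nearest Pdk1, the gene of a pyruvate dehydrogenase kinase, went in C57 from 4.75 and 6.42 to 15.3 and 17.1. Low levels of this kind are near the counting limit of the libraries.

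At the members, marks that the rule did not use differed between the basal classes in the same direction as H3K27ac. The same shares were not taken over all matched regions. Whether they are particular to the members therefore cannot be told. In strains of the high class the median basal ratio of the other strain to the inducing strain was 1.88 for Pol II, 1.48 for H3K4me2 and 1.60 for H3K4me3, and it was above 1 in 87.0%, 84.2% and 83.4% of pairs. In the equal class the ratios were 0.963, 0.995 and 0.998. In the low class they were 0.574, 0.538 and 0.639, and above 1 in 11.6%, 8.66% and 22%. PU.1 peaks at basal were listed in the other strain in 83.3% of high pairs and in the inducing strain in 70.1%, and in low pairs in 54.2% and 67.9%. C/EBPb peaks were listed in 44.4% against 28.5% in high pairs and in 12.3% against 35.7% in low pairs. In the equal class PU.1 peaks stood at 73.5% and 74.6%, and C/EBPb peaks at 30.2% and 35.7%. The lists differ in length between strains, at basal from 13722 C/EBPb peaks in BALB to 32353 in PWK. These peak shares therefore mix differences at the members with differences of the lists, and they were not tested. The median H3K27ac ratio at 24 h in the other strain was 1.3 in the high, 1.75 in the equal and 2.2 in the low class, and it was under 1 in 25.3%, 8.90% and 6.86% of pairs; the basal mean is a part of this ratio.

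Pol II, measured in other libraries, tested the response independently. Its change at 24 h was tested with limma on log2(normalized tags + 1) in each strain's whole table, with Benjamini-Hochberg adjustment over that table. In the inducing strain, Pol II rose at 18 of 145 PWK-only regions (1.44% of all tested regions rose), at 11 of 198 SPRET-only regions (0.782%), at 3 of 40 BALB-only regions (0.663%), at 0 of 156 C57-only regions (0.223%) and at 0 of 117 NOD-only regions (0%). At an unadjusted p under 0.05 it was higher at 67 PWK-only, 99 SPRET-only, 17 BALB-only, 27 C57-only and 37 NOD-only regions, beside 7.02%, 5.36%, 6.20%, 3.86% and 4.61% of the tables. edgeR on the recovered reads called 18, 36, 2, 2 and 0 members. Every 24 h library exceeded every basal library at 75 PWK-only, 86 SPRET-only, 19 BALB-only, 19 C57-only and 69 NOD-only regions, beside 7.80%, 5.54%, 14.2%, 2.94% and 15.6% of all matched regions. The estimated change was positive at 135 of 145, 183 of 198, 36 of 40, 143 of 156 and 101 of 117 regions. The median log2 change was 0.92 for PWK-only, 0.89 for SPRET-only, 1.23 for BALB-only, 0.57 for C57-only and 0.81 for NOD-only regions, beside table medians of -0.03, -0.10, 0.32, -0.03 and -0.02.

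These calls depended on single libraries, and a lone remaining library was taken to vary like the others. Of the PWK libraries, leaving out 24 h replicate 2 gave 4 PWK-only calls, 24 h replicate 3 gave 5, basal replicate 2 gave 7 and basal replicate 3 gave 4. Of the SPRET libraries, leaving out 24 h replicate 1 or 2 gave 0 SPRET-only calls, 24 h replicate 3 gave 6, and basal replicates 1, 2 and 3 gave 5, 6 and 3. The BALB-only count was 0 without BALB basal replicate 3, and the C57-only count was 4 without C57 basal replicate 1. Same-numbered Pol II libraries deviated together in PWK, SPRET, NOD and BALB, and less clearly in C57. With the replicate as a block, Pol II rose at 64 PWK-only regions (5.96% of the table) and at 69 SPRET-only regions (3.56%). It also rose at 33 NOD-only regions (3.71%), at 1 C57-only region (0.415%) and at 0 BALB-only regions (0%).

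Pol II also tended to be higher at 24 h in the strains that did not pass the H3K27ac rule. At SPRET-only regions the median log2 change was 0.89 in SPRET, 0.73 in BALB, 0.51 in NOD, 0.50 in PWK and 0.37 in C57. PWK-only regions had 0.92 in PWK, 0.80 in BALB, 0.55 in NOD, 0.48 in C57 and 0.23 in SPRET. C57-only regions had 0.57 in C57, 0.77 in BALB, 0.62 in NOD, 0.54 in PWK and 0.15 in SPRET. The inducing strain had the largest median for the PWK-only, SPRET-only and BALB-only groups. It did not for the C57-only and NOD-only groups. The BALB table as a whole had a median of 0.32. With median-ratio scaling NOD had the largest median for NOD-only regions, at 0.83 against 0.63 in BALB. For C57-only regions NOD still had a larger median than C57 with that scaling, at 0.65 against 0.62. These differences between strains were not tested.

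**Figure D3:**
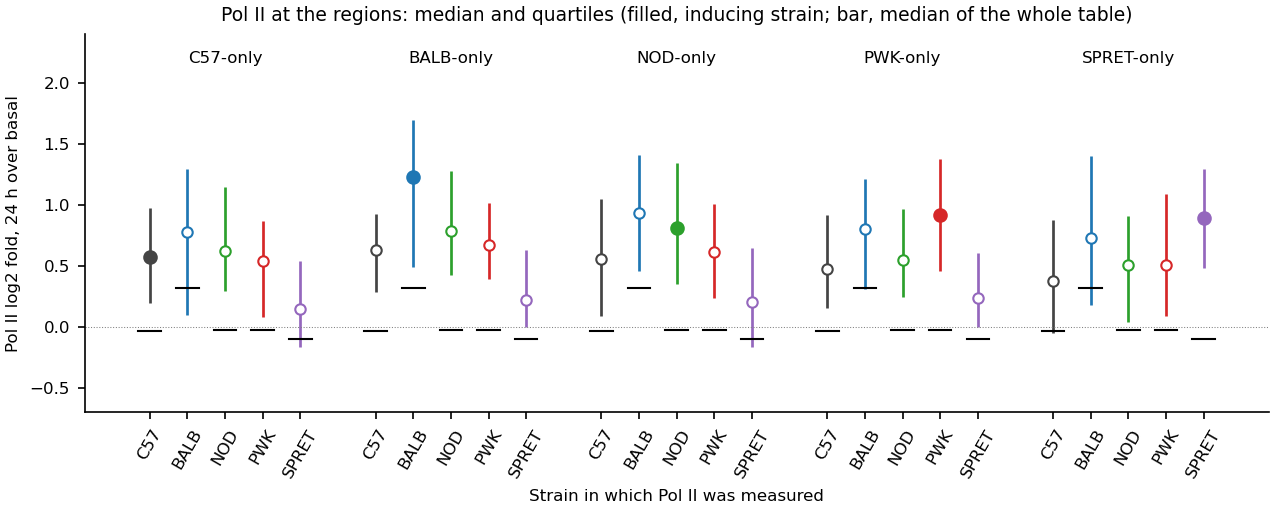
Log2 change of Pol II at 24 h against basal (limma) at the members of each group, in each of the 5 strains, as the median with its quartiles (filled in the inducing strain) and, as a black bar, the median of the whole table. The median in the inducing strain runs from 0.57 for C57-only to 1.23 for BALB-only regions, and the medians in the other strains run from 0.15 to 0.93.

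At single regions, the Cd36 locus gave the steadiest Pol II result. Pol II tags at the PWK-only region printed above were 1.41, 2.10 and 0.76 at basal and 27.3, 18.3 and 29.1 at 24 h in PWK, a log2 change of 3.43 (SE 0.46, limma adjusted p = 0.00167, 3 libraries against 3). Another PWK-only region near it, also intronic, chr5:17854199-17855199, had Pol II tags of 4.94, 9.09 and 7.58 at basal and 51.0, 56.0 and 65.8 at 24 h, a log2 change of 2.86 (SE 0.35, limma adjusted p = 9.551e-04). Both calls held without each of the 6 libraries in turn. In PWK, H3K27ac at that other region went from 65.2 and 51.7 to 223 and 157, and in the other strains its ratio was 1.04 to 1.60. Every 24 h library exceeded every basal library in PWK for both measures.

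Pol II at the Fbp1 region of SPRET was 4.84, 0 and 0 at basal and 29.6, 23.3 and 24.0 at 24 h, a log2 change of 3.88 (SE 0.64, limma adjusted p = 0.0165). The call was lost in 5 of 6 omissions, with log2 changes of 3.78, 3.94 and 3.92 without SPRET 24 h replicate 1, 2 or 3 and of 3.45 without SPRET basal replicate 2 or 3, so that the size moved little while the adjusted p moved. The BALB-only region nearest Etv3, chr3:87512199-87513199, an ETS-family repressor gene, had Pol II tags of 12.8, 8.90 and 5.47 at basal and 126 and 84.9 at 24 h. Its log2 change was 3.44 (SE 0.65, limma adjusted p = 1.12e-04), and the call was lost without BALB basal replicate 3, at 3.16. Its H3K27ac went in BALB from 27.2 and 34.0 to 193 and 94.3, while the other strains started between 114 and 329 and rose 1.87-fold to 2.12-fold. Pol II at this region also rose in PWK, by 1.60 (limma adjusted p = 0.00945), and in SPRET, by 1.10 (limma adjusted p = 0.0329). BALB was the lowest of the 5 strains at this region before IL-4, and Pol II responded in other strains as well.

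With the replicate block, Pol II rose at 1 C57-only and 33 NOD-only regions. Without the block, no C57-only or NOD-only region passed for Pol II. The smallest unadjusted p among C57-only regions was at the region nearest Hrh4, chr18:13306576-13307576, with a log2 change of 2.2 (SE 0.47, limma adjusted p = 0.0597). It passed with median-ratio scaling (2.26), with edgeR (2.37) and without C57 basal replicate 1 (2.15). Among NOD-only regions it was the intronic region of Pdcd1lg2, chr19:29463736-29464736, which encodes a ligand that inhibits T cells, with 2.27 (SE 0.37, limma adjusted p = 0.209). H3K27ac there went in NOD from 47.4 and 73.0 to 134 and 198 and in BALB from 102 and 107 to 318 and 174. Pol II at this region rose in BALB, by 2.6 (limma adjusted p = 0.0150), a call lost without BALB basal replicate 3, when no region of the BALB table passed.

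H3K4me2 passed the test at few members. It rose at 3 of 145 PWK-only regions (0.311% of all tested regions rose), 1 of 156 C57-only (0.179%), 0 of 117 NOD-only (0.167%), 0 of 40 BALB-only (0.0111%) and 0 of 198 SPRET-only regions (0%) (limma). At an unadjusted p under 0.05 it was higher at 24, 8, 12, 0 and 1 regions, beside 3.2%, 2.21%, 1.97%, 0.746% and 1.05% of the tables, and edgeR called 1, 4, 0, 0 and 0. The libraries of both conditions did not overlap, with 24 h above basal, at 72, 31, 31, 3 and 14 regions, beside 5.18%, 2.35%, 3.93%, 1.76% and 1.91% of all matched regions. The median log2 change in the inducing strain was 0.41 in PWK, 0.06 in C57, 0.09 in NOD, -0.16 in BALB and -0.19 in SPRET, beside table medians of -0.18, -0.69, -0.30, -0.63 and -0.48. Since the tables as a whole went down, scaling by the median ratio gave 0.58, 0.73, 0.38, 0.45 and 0.27 in the same order, so the sign in BALB and SPRET depends on the scaling. The PWK-only count was 0 without PWK 24 h replicate 1 or 2. The C57-only count was 2 without C57 24 h replicate 1 and 0 without 24 h replicate 2 or basal replicate 2, and the NOD-only count was 3 without NOD basal replicate 1 and 2 without basal replicate 2. The scaling also changed the split of higher and lower calls over the tables, from 121 and 39 to 270 and 8 in C57 and from 115 and 15 to 23 and 0 in NOD.

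The PWK-only region with the largest H3K4me2 change was intronic, chr8:117446882-117447882, with Plcg2, a phospholipase of immune receptor signalling, as the nearest gene start. Its H3K4me2 was 1.38 and 1.61 tags at basal and 27.3 and 29.4 at 24 h, a log2 change of 3.56 (SE 0.60, limma adjusted p = 8.462e-06). The call was lost without PWK 24 h replicate 1 (3.61) or 2 (3.50). The C57-only region nearest Pak3, a kinase gene, at chrX:143482558-143483558, went from 335 and 253 to 635 and 902, a change of 1.38 (SE 0.32, limma adjusted p = 0.0134) that was lost without C57 24 h replicate 2 (1.12) or basal replicate 2 (1.17). H3K4me3, the promoter mark, stayed low at the members. Its median in the inducing strain went from 1.71 to 4.57 tags in C57, 1.83 to 2.59 in BALB, 3.2 to 6.03 in NOD, 2.29 to 4.39 in PWK and 2.98 to 5.03 in SPRET. The 24 h mean was above basal in 86.5%, 62.5%, 81.2%, 86.9% and 84.8% of members, against 44.3%, 38.3%, 38%, 41.4% and 43.7% of all matched regions.

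H3K27ac from the Egr2 mice could be read at a part of the members. That table covers 4677 sites where EGR2 binding was induced by 24 h of IL-4, so it is selected on EGR2, and 80 of its sites lay in 79 members, of which 17 were C57-only, 4 BALB-only, 11 NOD-only, 29 PWK-only and 19 SPRET-only. The marks around these sites do not show the deletion itself, which was not checked here. In Egr2flfl cells H3K27ac rose at 24 h at 11 of the 17 C57-only sites (25.6% of all sites rose), 4 of 4 BALB-only, 5 of 11 NOD-only, 20 of 29 PWK-only and 3 of 19 SPRET-only sites (limma). The median log2 change at C57-only sites was 1.65, beside 0.50 for all sites. In LyzMCreEgr2flfl cells it rose at 5 of the 17 C57-only sites (14.4%).

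At 24 h, H3K27ac was lower in LyzMCreEgr2flfl than in Egr2flfl cells at 11 of 17 C57-only sites (23.2% of all sites were lower). The median log2 difference was -1.11, beside -0.50 for all sites, and no C57-only site had a positive difference. It was lower at 8 of 29 PWK-only, 3 of 11 NOD-only and 3 of 19 SPRET-only sites and higher at 1 NOD-only site, and 3 of the 4 BALB-only sites had a positive difference. The C57-only count was 3 without Egr2flfl 24 h replicate 1, 5 without Egr2flfl 24 h replicate 2, 7 with edgeR and 5 with median-ratio scaling, under which the median was -0.59 and 4 of 17 sites were positive. Over the whole table that scaling turned a split of 66 higher and 1087 lower into 536 and 496, and the rises in Egr2flfl from 1196 higher and 119 lower into 639 and 502. The difference between genotypes in the response to IL-4 passed at no site by limma or edgeR. At an unadjusted p under 0.05 it was lower at 4 of the 17 C57-only sites, beside 546 lower and 69 higher of all 4677.

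The site nearest Cited4, a transcriptional coactivator gene, at chr4:120643668-120644668, had 24.7 and 14.3 tags at basal and 51.3 and 46.9 at 24 h in Egr2flfl cells. LyzMCreEgr2flfl cells had 8.02 and 3.36 at basal and 4.16 and 6.96 at 24 h, a log2 difference at 24 h of -2.96 (SE 0.46, limma adjusted p = 4.52e-04). The site nearest Dip2c, chr13:9239326-9240326, went from 2.56 and 3.39 to 23.1 and 13.5 in Egr2flfl cells and from 2.01 and 2.80 to 3.12 and 1.74 in LyzMCreEgr2flfl cells, a difference of -2.48 (SE 0.56, limma adjusted p = 0.00459). The Zmiz1 site lay in the member printed above, but its window is centred on EGR2 binding and is not the printed sequence. Egr2flfl cells went there from 23 and 17 to 44.2 and 48.8 tags. LyzMCreEgr2flfl cells went from 18.1 and 14 to 3.12 and 20.3, a difference of -2.34 (SE 0.55, limma adjusted p = 0.00608). The Egr2flfl basal values were above the C57 basal values given earlier for the member's own window. The site nearest Batf, an AP-1 factor gene of lymphoid and myeloid cells, reached 41.2 and 44.3 in Egr2flfl and 40.5 and 32.5 in LyzMCreEgr2flfl cells, a difference of -0.23 (SE 0.33, limma adjusted p = 0.657). The 4 sites named here were chosen after their values were seen, apart from that at Zmiz1.

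In C57 the response could be followed over time, with the same basal and 24 h libraries as above. At C57-only regions the median H3K27ac was 10.1 tags at basal, 15.7 at 1 h, 31.3 at 6 h and 32.5 at 24 h. Over all matched regions it was 72.8, 34.7, 54.7 and 50.0. Of the 156 regions, 24 were at least 2.5-fold above basal at 1 h (15.4%, against 2.04% of all matched regions) and 87 at 6 h (55.8%, against 4.85%). The highest mean was at 24 h in 95 regions, at 6 h in 58 and at 1 h in 3. Median Pol II at these regions went from 7.76 to 11.2, 13.6 and 10.3 tags, with its highest value at 6 h. Over all matched regions it was 36.7, 27.9, 34.3 and 33.4. Pol II had a single library at 1 h, and fewer at 6 h than at basal or 24 h, so this order is uncertain. Among regions assigned to other strains, 16 of 40 BALB-only and 30 of 117 NOD-only regions were at least 2.5-fold above basal in C57 at 6 h, as were 37 of 145 PWK-only and 33 of 198 SPRET-only regions. The time points lacked a test here because the C57 basal and 24 h libraries chose the members. A 24 h mean above basal at C57-only regions follows from the rule. The time of the highest mean was not counted over all matched regions.

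**Figure D4:**
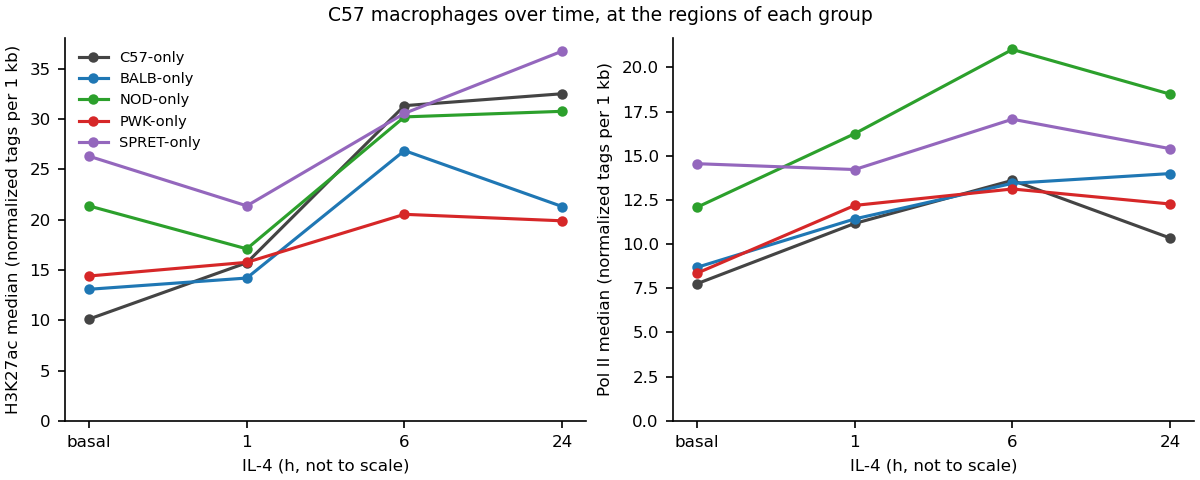
Median H3K27ac in C57 cells at basal and 1, 6 and 24 h of IL-4 and, in the second panel, median Pol II, for the members of each group, in normalized tags. The C57-only H3K27ac median rises from 10.1 to 31.3 tags by 6 h.

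Binding peaks of 5 transcription factors were read from the deposited lists. In the inducing strain at 24 h, 82.3% of members overlapped a PU.1 peak, 70.0% a STAT6 peak, 56.9% a C/EBPb peak, 54.7% an EGR2 peak and 54.7% a PPARg peak. Over all matched regions the shares at 24 h ran, by strain, from 78.8% to 87.9% for PU.1 and 33.9% to 65.4% for STAT6. They ran from 39.3% to 57.5% for C/EBPb, 31.3% to 55.4% for EGR2 and 30.8% to 54.1% for PPARg. The members' share pools 5 strains, so 2 factors were also read by strain. At 24 h EGR2 peaks lay at 64.7% of C57-only, 57.5% of BALB-only, 53.0% of NOD-only, 29.7% of PWK-only and 65.7% of SPRET-only regions. Over all matched regions of these strains the shares were 55.4%, 54.6%, 32.8%, 31.3% and 55.3%. For C/EBPb they were 63.5%, 47.5%, 53.0%, 55.2% and 57.1%, against 50.6%, 45.3%, 57.5%, 51.5% and 39.3%. A STAT6 peak was present at 24 h and absent at basal in 51.0% of PWK-only, 43.6% of C57-only, 32.5% of BALB-only, 32.3% of SPRET-only and 29.1% of NOD-only regions. In all matched regions these shares were 26.7%, 14.8%, 13.5%, 14.8% and 9.28%. Gained PU.1 peaks were found in 23.7% of C57-only, 12.5% of BALB-only, 19.7% of NOD-only, 8.28% of PWK-only and 3.54% of SPRET-only regions, against 5.48%, 4.25%, 7.17%, 3.48% and 2.66% of all matched regions. The members' share was above that of all matched regions in each of the 5 strains for both factors, and this difference was not tested. Strains that did not pass the rule also gained STAT6 peaks at the same members. C57-only regions gained them in 49.4% in PWK, 30.1% in NOD, 29.5% in BALB and 19.9% in SPRET. SPRET-only regions gained them in 41.4% in PWK, 36.4% in BALB, 24.2% in NOD and 20.2% in C57. In C57, 58.3% of C57-only regions had PU.1 peaks at basal and 80.8% at 24 h, against 83.8% and 84.3% of all matched regions.

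Gains of the other factors were each read beside all matched regions of the same strain. EGR2 peaks were gained at 46.0% of SPRET-only and 39.7% of C57-only regions, against 27.7% and 34.4% of all matched regions, and at 22.1% of PWK-only regions against 17.2%. In BALB and NOD they were gained at 10.0% and 2.56%, against 9.25% and 1.84%. PPARg peaks were gained at 55.1% of C57-only, 42.7% of NOD-only, 37.5% of BALB-only, 32.4% of PWK-only and 22.7% of SPRET-only regions, against 41.4%, 33.1%, 25.9%, 20.3% and 8.62%. C/EBPb peaks were gained at 33.3%, 42.7%, 37.5%, 20.7% and 10.1% in the same order, against 20.1%, 25.5%, 21.9%, 9.64% and 4.42%. The lists differ in length, and in NOD the EGR2 list was longer at basal (25341 peaks) than at 24 h (16604), so shares of different strains cannot be set against each other. Peaks open only at 24 h by ATAC-seq made up 6.41% of C57-only, 42.5% of BALB-only, 12% of NOD-only, 19.3% of PWK-only and 31.3% of SPRET-only regions, against 4.29%, 12.1%, 4.66%, 7.04% and 14.9% of all matched regions.

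**Figure D5:**
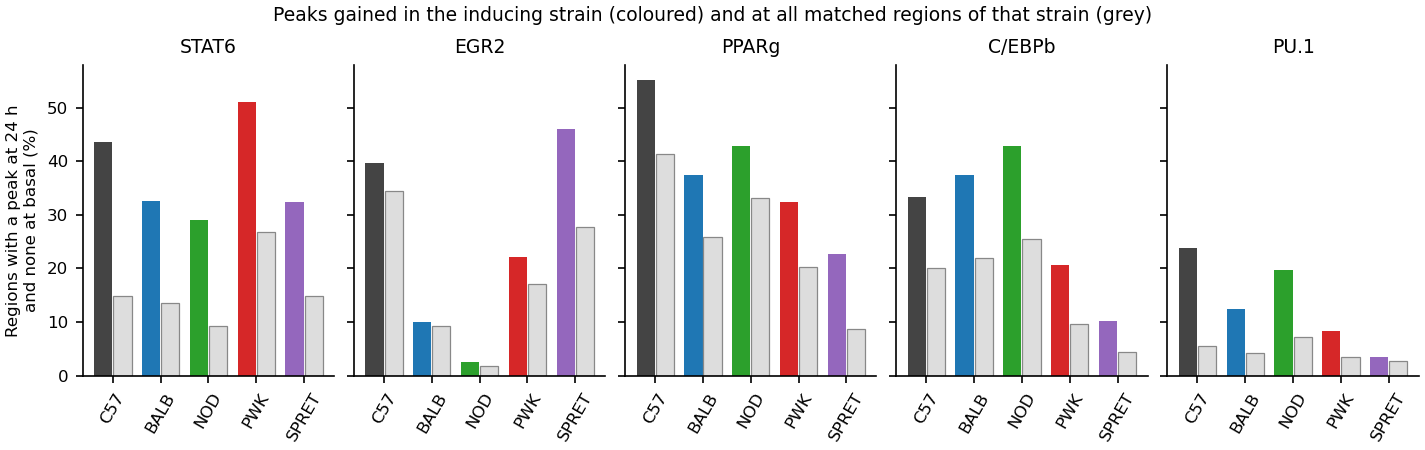
Share in percent of members with a factor peak present at 24 h and absent at basal in the inducing strain, beside the share of all matched regions in that strain. For STAT6 the members run from 29.1% to 51.0% and all matched regions from 9.28% to 26.7%.

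The leading regions illustrate these lists. At the Cd36 region STAT6 and PPARg peaks were listed in PWK at 24 h and not at basal, and PU.1 and C/EBPb peaks in both conditions. Its ATAC-seq peak was called only at 24 h in PWK and in both conditions in NOD, BALB and SPRET. The Fbp1 region had EGR2, STAT6 and PPARg peaks in SPRET at 24 h alone, a PU.1 peak in both conditions and no C/EBPb peak in SPRET, while a C/EBPb peak was listed in each of the other 4 strains in at least 1 condition. The Zmiz1 region had a C57 EGR2 peak at 24 h alone and no STAT6 peak in any strain.

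Short motifs were counted in the central 200 bp of each region, on both strands, in the mm10 sequence. The STAT6 motif, TTC and GAA with 4 bases of any kind between them, occurred in 12.5% of members and in 4.84% of all matched regions. By group it occurred in 6.41% of C57-only, 15% of BALB-only, 12% of NOD-only, 15.2% of PWK-only and 15.2% of SPRET-only regions. The EGR motif GTGGGNG occurred in 28% against 23.2%, the AP-1 motif TGANTCA in 21% against 16%, the PU.1 motif GAGGAAGT in 11.7% against 10.3%, the C/EBP motif TTGCNNAA in 10.1% against 10.8%, and the PPAR motif, GGNCA and AGGNCA with 1 base of any kind between them, in 1.52% against 0.777%. Of the 10 members with a PPAR match, 8 were C57-only (5.13% of that group), and NOD-only and PWK-only regions had 0. Matches of different motifs may overlap, and a match is not a binding site. The members were 47.1% intronic, 38.1% intergenic and 11.1% in promoters, against 36.9%, 28.6% and 28.9% of all matched regions. NOD-only regions held 28 of the 73 promoter members. The median GC content of the central sequence was 51.2% in members and 54% in all matched regions.

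Of the members, 443 had a gene start within 50 kb, belonging to 399 genes. Near the genes of a list of alternative activation genes, 10 of 76 matched regions were members (13.2%), against 1.86% of all matched regions within 50 kb of a gene start. They lay near Fbp1, Mrc1 (the mannose receptor), Tgm2 (transglutaminase), Ptgs1 (a cyclooxygenase), Ccl24 and Ccl17 (chemokines) and Mmp12 (macrophage elastase), and 7 of the 10 were SPRET-only. Pol II rose at 4 of them, all in SPRET, namely at the Fbp1 region, at Mmp12 and at 2 of 3 Ptgs1 regions. Upstream of Ptgs1, chr2:36216723-36217723 went from 144 and 190 to 740 and 407 H3K27ac tags in SPRET, with ratios of 2.00 to 2.24 in the other strains and a Pol II log2 change of 1.54 (SE 0.27, limma adjusted p = 0.0230). The Ptgs1 promoter had 1.36 (SE 0.26, limma adjusted p = 0.0318), and the Mmp12 region 2.04 (SE 0.30, limma adjusted p = 0.01). The region nearest Mrc1, PWK-only with an H3K27ac ratio of 3.67, had 1.89 (SE 0.51, limma adjusted p = 0.0881).

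Single libraries decided the 4 SPRET calls. Leaving out SPRET 24 h replicate 1 or 2 kept 0 of the 4, leaving out 24 h replicate 3 or basal replicate 1 kept 2, and leaving out basal replicate 2 or 3 kept 1. For the upstream Ptgs1 region the log2 changes were 1.32 and 1.55 without SPRET 24 h replicate 1 and 2 and 1.60, 1.56 and 1.45 without basal replicate 1, 2 and 3, all of which missed the threshold.

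Near genes of lipid handling, 8 of 95 matched regions (8.42%) were members. Besides the pair at Cd36 they lay near Abcg1 (a cholesterol exporter; 1 SPRET-only and 1 NOD-only region), Scd1 and Scd2 (fatty acid desaturases), Fabp4 (a fatty acid carrier) and Olr1 (a receptor of oxidized lipoprotein). Pol II rose at 3 of the 8, the Cd36 pair in PWK and the SPRET-only region in Scd2, at 1.77 (SE 0.35, limma adjusted p = 0.0405), and the estimate was positive at all 8. The Scd2 call was lost in each of the 6 omissions of a SPRET Pol II library, while both Cd36 calls remained throughout. Transcription factor genes had 8 members of 200 regions (4.0%), near Batf3, Batf, Irf4, Nfil3, Runx1, Klf4 and Bhlhe40. The Pol II estimate was positive at all 8, with a median of 1.23. None passed by limma (adjusted p from 0.164 to 0.772), 6 were higher at an unadjusted p under 0.05, and edgeR called 1. The stronger Batf3 region, chr1:191125575-191126575, went in SPRET from 65.0 and 92.2 to 215 and 192 tags, and its Pol II change was 1.00 with limma adjusted p = 0.194, or 0.0156 with the replicate block.

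Genes of the IL-4 receptor and its feedback had 3 members of 75 regions (4.0%), all SPRET-only, at Dusp4, a MAP kinase phosphatase, and Cish, a SOCS-family inhibitor of cytokine receptors. The region chr8:34762392-34763392 nearest Dusp4 went in SPRET from 27.4 and 31.6 to 138 and 111, while the other basal means were 174 to 226. Its Pol II change was 1.04 (limma adjusted p = 0.636). Of the 3 members, 1 was higher at an unadjusted p under 0.05 and edgeR called 0. Inflammatory genes had 4 members of 94 regions (4.26%), 3 near Il1a, a pro-inflammatory cytokine gene, and 1 in Ripk2, a kinase gene of innate sensing. At the Ripk2 region, chr4:16159239-16160239, Pol II rose in PWK by 2.51 (SE 0.49, limma adjusted p = 0.0182), and its H3K27ac went from 61.8 and 38.4 to 195 and 90.7. That call was lost without PWK 24 h replicate 1 (1.94), 2 (2.94) or 3 (2.66) and without basal replicate 2 (2.05) or 3 (2.65). Receptor and adhesion genes had 1 member of 101 regions (0.990%), the SPRET-only promoter of Trem1, an amplifier of inflammatory signalling, where Pol II changed by 1.41 with limma adjusted p = 0.207, or 0.0206 with the replicate block.

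A further list held genes that the study chose as examples on these same samples, so it is not independent evidence. Of 30 matched regions near them, 5 were members (16.7%), and Pol II rose at all 5 (limma). Of these calls 2 were in SPRET, and leaving out SPRET 24 h replicate 1 or 2 kept 0 of them and basal replicate 3 kept 1. The other 3 were in PWK, and each omission of a PWK Pol II library kept 2 of them, except basal replicate 1, without which all 3 remained.

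Members of different strains met at the same genes. Of the 399 genes, 36 had at least 2 members and 22 had members of at least 2 groups. Smurf1, a ubiquitin ligase gene of TGF-beta signalling, had 4, which were NOD-only or PWK-only. Il1a had 2 SPRET-only regions and 1 PWK-only region, Ccl17 and Abcg1 each had a NOD-only and a SPRET-only region, and Etv3 had a BALB-only and a SPRET-only region. The 2 Ccl17 regions, chr8:94802053-94803053 and chr8:94803282-94804282, lay next to each other, with a ratio of 2.91 in SPRET and of 3.6 in NOD. In each of them another strain came within reach of the threshold, at 2.32 and 2.47. In 75 members another member of the same group lay within 50 kb.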

How the data were processed

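ChIP-seq of BMDMs was analysed from the processed tables. The authors aligned reads with Bowtie2 to strain genomes, shifted them to mm10, and counted tags with HOMER within 500 bp of ATAC-seq peak centres. The deposited values are a signal: tags per region, scaled to 10000000 per library. The authors called factor peaks per replicate and kept reproducible ones, and the deposited peak lists give a score for each peak. Regions of the C57 table were paired with the nearest centre within 500 bp in each other table, mutually. Whole reads were recovered for 100% of 5377124 values (tolerance 0.1 read) and served for edgeR 4.0.16 as an alternative. Pol II, H3K4me2 and Egr2-genotype H3K27ac were tested two-sided on log2(tags + 1) with limma 3.58.1 in R 4.3.3, Benjamini-Hochberg adjusted over each table at 0.05. All other steps used Python 3.11.15, numpy 2.4.6, pandas 2.3.3 and scipy 1.17.1. Tests were checked on simulated data.

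Same-numbered Pol II libraries deviated together in PWK (correlations 0.63, 0.44 and 0.51) and SPRET (0.44, 0.41 and 0.42). They also did in NOD (0.56) and BALB (0.39 and 0.46). In C57 the same-numbered correlations were 0.19, 0.30 and 0.40. There, however, 24 h replicate 1 was closer to basal replicate 2 (0.27), and 24 h replicate 3 to basal replicate 4 (0.45). The block took the numbers as pairs in every strain, which is least certain in C57. Named regions were, in each group, those with the largest H3K27ac ratio, the largest Pol II and H3K4me2 change and the highest and lowest basal level elsewhere, and for each gene list the member with the most H3K27ac. Genes were assigned by the nearest GENCODE start on mm10, within 50 kb for the gene lists. The members, lists and tests were chosen with earlier results of these data known. Alternatives covered the pseudocount, thresholds, scaling, matching, windows, the replicate block, edgeR and the omission of each library. A total of 4 value columns that matched no sample, and the input libraries, were not used. Depth ranged from 4691644 to 21973750 tags, so values of a few tags rest on a few reads. One region that the naming rule picked for a gene list is not reported here.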

Additional observations from a re-analysis of the deposited data

Results flagged for a closer look

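H3K4me2 moved in opposite directions between strains at 4 named regions, in that both 24 h libraries exceeded both basal libraries in the inducing strain and lay below them in another. These differences were not tested. At the PWK-only Cd36 region the log2 change in PWK was upward and was -1.07 in C57, -0.66 in BALB, -0.50 in NOD and -0.39 in SPRET. The NOD-only Skil promoter changed by -1.76 in BALB and -0.95 in SPRET, the SPRET-only Fbp1 region by -0.34 in C57, and the BALB-only region nearest Gins2, a DNA replication gene, by -0.66 in SPRET. The medians of the H3K4me2 tables were -0.69 in C57, -0.63 in BALB, -0.30 in NOD, -0.18 in PWK and -0.48 in SPRET. The falls at Fbp1 in C57 and at Cd36 in SPRET were smaller than the median of their table, and the other falls listed were larger. Direction here is that of the normalized tags. The share of all matched regions with such opposite libraries was not taken.

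For H3K27ac, 54 members had every 24 h library below every basal library in at least 1 other strain, and 29 of them were SPRET-only. Among the groups of 4 libraries that could be tested for a single library far from the others, 6 were tested and 0 stood out.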

How the results depend on the processing

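With no minimum of 16 tags there were 1269 members (C57 339, BALB 148, NOD 246, PWK 269), with a 2-fold limit 1032 (BALB 79, NOD 193, PWK 219, SPRET 360), and with every other strain required to stay under 1.4-fold 70 (C57 5, BALB 1, NOD 6, PWK 14, SPRET 44). A minimum of 32 tags left 101 C57-only regions, and median-ratio scaling gave 252 for C57 and 84 for BALB. Omitting a library gave 665 to 1078 members in all, 120 to 418 for C57, 22 to 396 for BALB, 86 to 611 for NOD, 119 to 476 for PWK and 170 to 451 for SPRET. Of the 656 members, 347 of 497 found with a pseudocount of 5 and 349 of 1032 found with the 2-fold limit were shared. Matching within 100 bp gave 564 members, and matching without mutual nearest centres, chosen after seeing the data, 680. High basal pairs made up 49.6% with a 1.5-fold limit and 29.9% with a pseudocount of 5.

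Pol II counts ran from 0 to 4 (C57), 0 to 2 (BALB), 4 to 16 (PWK) and 0 to 6 (SPRET) when a library was left out. C57 had 1 with a pseudocount of 5, 2 with median-ratio scaling and 2 with edgeR; BALB had 1 with median-ratio scaling; SPRET had 20 with a mean of at least 8 tags, 24 with median-ratio scaling and 36 with edgeR. With the replicate block Pol II gave 1 (C57), 0 (BALB), 33 (NOD), 64 (PWK) and 69 (SPRET). H3K4me2 gave 0 (C57), 4 (NOD), 11 (PWK) and 1 (SPRET, with 27 lower). In every table the labels pair the samples only by number. Under the block, BALB basal replicate 3 and C57 basal replicate 4 stand alone. Leaving out a library gave H3K4me2 counts of 0 to 2 (C57), 0 to 3 (NOD) and 0 to 3 (PWK), median-ratio scaling 4 (C57) and 1 (PWK), and edgeR 4 and 1. Over whole tables, lower H3K4me2 calls went from 39 to 34426 without C57 24 h replicate 1, from 0 to 28020 without BALB 24 h replicate 1, from 15 to 14436 without NOD basal replicate 1 and, in SPRET, from 0 to 6270 without basal replicate 1 and 16186 with the block. Sites lower in LyzMCreEgr2flfl cells numbered 5 with median-ratio scaling, 7 with edgeR and 3 to 11 without 1 library. The cause of these moves was not tested.

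Within the central 200 bp, 48.8% of members held an EGR2, 49.1% a PPARg, 76.4% a PU.1 and 51.4% a C/EBPb peak; among the best 5000 peaks the shares were 27.4% for STAT6, 11.3% for PU.1, 17.4% for EGR2, 13.7% for PPARg and 11.9% for C/EBPb. In 300 bp, motif shares were 17.8% for STAT6, 33.7% for EGR, 14.3% for C/EBP and 25% for AP-1, beside 7.31%, 31.5%, 14.5% and 18.7% of all matched regions. With median-ratio scaling the H3K4me2 medians changed sign at BALB-only (-0.16 to 0.45) and SPRET-only regions (-0.19 to 0.27), and so did the genotype difference at 24 h at NOD-only (-0.42 to 0.07) and SPRET-only sites (-0.39 to 0.04). No fold or log2 change of a named region in its inducing strain changed direction. With 2 libraries behind most means, a level of a few tags rests on a few reads, and strains were compared across separately made tables.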
